A study of Saccharomyces cerevisiae with 6 samples.

Results

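The genes described here encode the subunits of the 3 nuclear RNA polymerases of the yeast Saccharomyces cerevisiae. They were found by gene name: an RPA, RPB, RPC or RPO name followed by a number, or RET1, leaving out RPO41, the polymerase of mitochondria. This gave 31 of the 6603 genes kept from the deposited table, and no measured value entered the choice. From textbook subunit composition, 7 belong only to RNA polymerase I, 7 only to RNA polymerase II and 10 only to RNA polymerase III, 2 are shared by polymerases I and III, and 5 are common to all 3 enzymes. All 31 genes had a value in each of the 6 libraries and passed the filter on low values. The lowest mean among them was 8.22 RPKM, for RPA12.

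RNA was measured by sequencing in wine yeast fermenting MS300, an artificial white wine must, in 1 l bioreactors at 25 °C. Cells were taken in the middle of exponential growth, at 6 g/l of CO2 given off. The groups were R008, a wild vineyard strain, with 25 mg/l of SO2; EC1118, an enological strain, with 25 mg/l of SO2; AWRI796, an enological strain, with 25 mg/l and with no added SO2; and VL3, an enological strain, with 25 mg/l and with no added SO2. SO2 is the antimicrobial preservative of winemaking. Each group is 1 library from 1 culture, so no group has a replicate, and cultures of R008 and EC1118 without SO2 were not analysed here. Ribosomal RNA was removed before sequencing, so the main products of RNA polymerase I had been depleted.

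RNA polymerase I transcribes only the precursor of the large ribosomal RNAs, RNA polymerase III makes transfer RNAs and other small RNAs, and RNA polymerase II makes messenger RNAs and many small noncoding RNAs. Each enzyme is built on a pair of large catalytic subunits, with an alpha-like assembly platform, a stalk and a zinc ribbon subunit in matching places, and with common subunits that all 3 enzymes use. In yeast, genes needed to make ribosomes often carry upstream elements called PAC, bound by the repressors Dot6 and Tod6, and RRPE, bound by Stb3.

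Promoters of 10 subunit genes are printed as examples of the upstream letters. The genes are the large subunits, the larger alpha-like subunit of polymerases I and III, and RPA49, RPC82 and RPB8. These last genes differed at least 1.5-fold with SO2 in a strain. Other members past 1.5-fold are not printed, among them RPA12 and RPC11, which have no PAC core. Each printed stretch runs from 200 to 51 bases before the start codon, on the strand of the gene, 5′ to 3′. The letters are from the RefSeq genome of build R64. Start and end equalled the deposited table's for all 31 members and for 5849 of the 5856 genes in both annotations. Capitals mark matches to the PAC core GATGAG and to the RRPE letters AAAAATTT on either strand; on the opposite strand these read CTCATC and AAATTTTT. Overlapping matches run together, as in AAAAATTTTT, which holds an RRPE match on each strand. The stretches lie at chr15:960787-960936 (plus strand) for RPA190, and on the minus strand at chr16:581247-581396 for RPA135, chr14:182659-182808 for RPA49, chr16:746886-747035 for RPC40, chr15:544196-544345 for RPO31, chr15:733508-733657 for RET1, chr16:919092-919241 for RPC82, chr4:210612-210761 for RPO21, chr15:616722-616871 for RPB2 and chr15:761316-761465 for RPB8.
RPA190: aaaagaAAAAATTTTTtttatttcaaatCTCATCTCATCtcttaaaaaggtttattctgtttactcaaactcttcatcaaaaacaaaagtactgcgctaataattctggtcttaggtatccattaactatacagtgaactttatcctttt
RPA135: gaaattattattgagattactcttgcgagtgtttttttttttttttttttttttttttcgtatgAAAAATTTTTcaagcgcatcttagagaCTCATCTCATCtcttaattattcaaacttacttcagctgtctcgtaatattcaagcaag
RPA49: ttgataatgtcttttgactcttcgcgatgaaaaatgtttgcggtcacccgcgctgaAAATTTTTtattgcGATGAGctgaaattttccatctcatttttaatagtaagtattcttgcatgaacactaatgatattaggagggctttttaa
RPC40: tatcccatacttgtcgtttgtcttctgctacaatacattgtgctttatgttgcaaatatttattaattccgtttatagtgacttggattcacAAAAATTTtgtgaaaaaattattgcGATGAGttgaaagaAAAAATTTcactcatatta
RPO31: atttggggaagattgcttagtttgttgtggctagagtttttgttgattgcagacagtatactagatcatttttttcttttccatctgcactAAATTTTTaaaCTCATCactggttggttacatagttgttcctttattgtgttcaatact
RET1: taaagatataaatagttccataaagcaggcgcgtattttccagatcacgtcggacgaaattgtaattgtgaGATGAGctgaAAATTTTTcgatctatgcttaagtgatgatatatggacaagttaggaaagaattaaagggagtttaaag
RPC82: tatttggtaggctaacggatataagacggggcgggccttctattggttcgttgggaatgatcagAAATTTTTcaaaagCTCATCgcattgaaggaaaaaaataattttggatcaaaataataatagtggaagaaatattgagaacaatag
RPO21: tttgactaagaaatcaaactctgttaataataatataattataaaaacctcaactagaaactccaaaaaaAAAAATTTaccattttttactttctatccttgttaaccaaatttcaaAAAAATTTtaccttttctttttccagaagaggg
RPB2: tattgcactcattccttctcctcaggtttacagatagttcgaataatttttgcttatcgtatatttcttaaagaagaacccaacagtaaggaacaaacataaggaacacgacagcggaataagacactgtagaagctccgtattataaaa
RPB8: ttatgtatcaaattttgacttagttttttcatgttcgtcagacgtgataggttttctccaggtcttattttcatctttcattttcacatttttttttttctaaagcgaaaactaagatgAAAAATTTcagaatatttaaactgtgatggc

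In these stretches the 3 members of polymerase I, the shared subunit RPC40 and the 3 members of polymerase III hold both kinds of match. The largest polymerase II subunit RPO21 and the common subunit RPB8 hold RRPE letters only, and RPB2 holds neither. RPA190 and RPA135, the large subunits of polymerase I, each carry a doubled PAC core in which 2 matches overlap.

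The same split was seen over all 31 promoters. A PAC core lay in the 250 bases before the start codon of 6 of the 7 polymerase I genes, 8 of the 10 polymerase III genes and both genes shared by these enzymes, but before 0 of the 7 polymerase II genes and 0 of the 5 common genes. Of all 5855 promoters scanned in the same way, 16.4% held it. The longer form GCGATGAG, which contains the core, was before 6 members and 3.93% of all promoters. RRPE letters were before 6 of the 7 polymerase I genes, 7 of the 10 polymerase III genes, both shared genes, 4 of the 5 common genes and 2 of the 7 polymerase II genes, against 13.7% of all promoters. Both kinds of match were before 14 members, namely 6 of polymerase I, 6 of polymerase III and the 2 shared genes, against 5.11% of all promoters. TTACCCG, the letters bound by the general factor Reb1, lay before 4 members (12.9%) and 7.21% of all promoters. The polymerase I gene without a PAC core was RPA12, and those of polymerase III were RPC17 and RPC11. These are matches of letters and not measured binding sites.

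**Figure D1:**
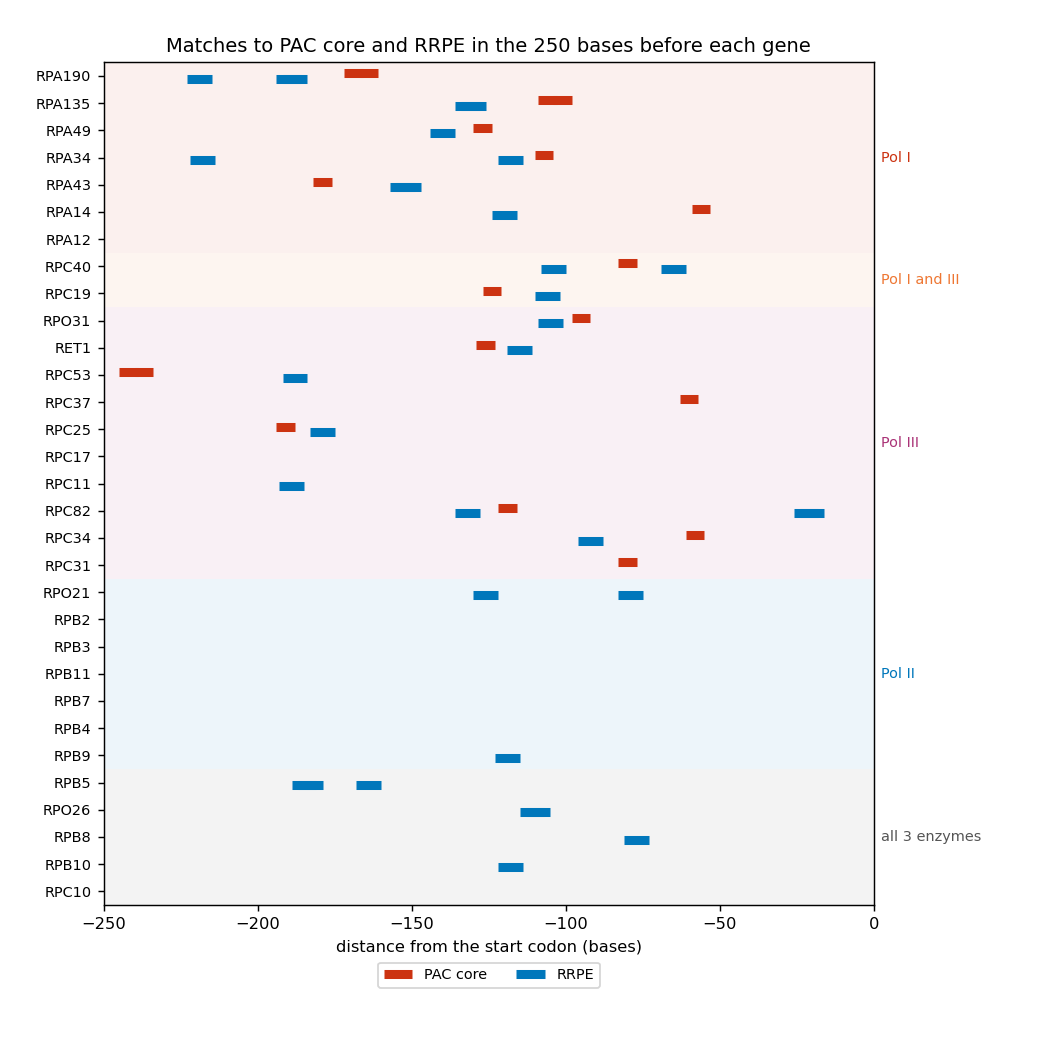
Places of PAC core (red) and RRPE (blue) matches on either strand in the 250 bases before each subunit gene, with distance from the start codon in bases on the horizontal axis and genes grouped by enzyme. Red marks stand before 16 of the 31 genes, all of them subunits of polymerase I, of polymerase III or of both.

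The 31 genes lie on 10 chromosomes, 8 of them on chromosome 15. RPA43, a stalk subunit of polymerase I, and RPA190 are divergent neighbours on chromosome 15, with 804 bases between them (chr15:960183-960986). None of the 31 genes matched another place in the genome by BLAST+. Of the 31, 5 overlap another gene of the table: RPC19 shares 285 bases with YNL114C, RPC53 shares 557 with BUD30, RPB3 shares 270 with YIL021C-A and 149 with YIL020C-A, RPC34 shares 99 with YNR003W-A, and RPA14 shares 8 with YDR157W. Whether reads were counted by strand is not given in the sources used here, so the values of these 5 genes are uncertain.

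Levels are given as scaled RPKM, in which read numbers are corrected for gene length, for library size and then by a median-of-ratios factor, which was 0.88 to 1.153. RPKM is per length, so levels of different genes are set side by side here. The mapping and each strain's gene lengths are unknown, and their part in the ratios between genes was not tested. The subunits of 1 enzyme did not have equal scaled RPKM. RPB2, the second largest subunit of polymerase II, had the highest mean of all members, 331.7 scaled RPKM. It had 263 in R008, 227 in EC1118, 379.8 and 328 in AWRI796 with and without SO2, and 388 and 404 in VL3 with and without SO2. RPO21, its catalytic partner, had 43.9 in R008, 36.2 in EC1118, 25.5 and 20.5 in AWRI796 with and without SO2, and 22.9 and 19.7 in VL3 with and without SO2. RPB2 was therefore 5.99 times RPO21 in R008 and 6.27 times in EC1118, against 14.9 to 20.6 times in the 4 libraries of AWRI796 and VL3. For RPO21 the R008 and EC1118 libraries were above the other 4, and for RPB2 they were below them.

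In the other enzymes the order of the large subunits went different ways. RPA190, the largest subunit of polymerase I, had 111 scaled RPKM in R008, 129 in EC1118, 172 and 111.5 in AWRI796 with and without SO2, and 161 and 167 in VL3 with and without SO2. RPA135, the second largest, had 64.3 in R008, 92.2 in EC1118, 102.5 and 63.5 in AWRI796 with and without SO2, and 100.7 and 170.5 in VL3 with and without SO2. Its ratio to RPA190 was between 0.57 and 0.714 in 5 libraries and 1.02 in VL3 without SO2. RPO31, the largest subunit of polymerase III, had 28.6 in R008, 32.2 in EC1118, 25.4 and 30.5 in AWRI796 with and without SO2, and 26.4 and 21.6 in VL3 with and without SO2. RET1, the second largest, had 65.2 in R008, 75.2 in EC1118, 75.0 and 67.1 in AWRI796 with and without SO2, and 66.4 and 114.7 in VL3 with and without SO2. RET1 was 2.2 to 2.95 times RPO31 in 5 libraries and 5.32 times in VL3 without SO2. In all 3 enzymes, then, the ratio of the second largest subunit to the largest was highest in the same library, VL3 without SO2; for polymerase II it was 20.6 there, against 5.99 to 17.0 in the other 5.

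Stalk, platform and zinc ribbon subunits were also unequal in scaled RPKM. Of these, RPA14, RPC19 and RPB3 overlap other genes, so their ratios are uncertain. The stalk subunit RPB4 of polymerase II was 5.72 to 10.4 times its partner RPB7, and RPC17 of polymerase III was 2.05 to 2.86 times its partner RPC25. In polymerase I the order was turned, RPA14 being 0.264 to 0.62 of RPA43. The smaller alpha-like subunit was below the larger in every library: RPC19 was 0.291 to 0.461 of RPC40, and RPB11 was 0.0993 to 0.173 of RPB3. Of the zinc ribbon subunits, RPB9 of polymerase II was 3.19 to 13.8 times and RPC11 of polymerase III was 3.93 to 19.7 times RPA12 of polymerase I.

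The lowest member by mean was RPA12, which takes part in RNA cleavage by polymerase I. It had 5.84 scaled RPKM in R008, 17.7 in EC1118, 7.98 and 8.82 in AWRI796 with and without SO2, and 4.89 and 2.84 in VL3 with and without SO2. Its 6.24-fold range over the 6 libraries was the widest of the 31 genes, and the highest library was EC1118. RPB3, the larger alpha-like subunit of polymerase II, had the narrowest range, 1.22-fold, from 103 to 125.5. Next in width after RPA12 were the common subunits RPO26, with a 4.11-fold range, and RPB10, with 3.17. RPB11, the lowest of polymerase II, lay between 10.3 and 20.9, and RPC53, the lowest of polymerase III, between 18.3 and 27.7. Among the common subunits RPB5 had the highest mean, 154.9, with 128 to 204, and RPB8 the lowest, 29.7.

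**Figure D2:**
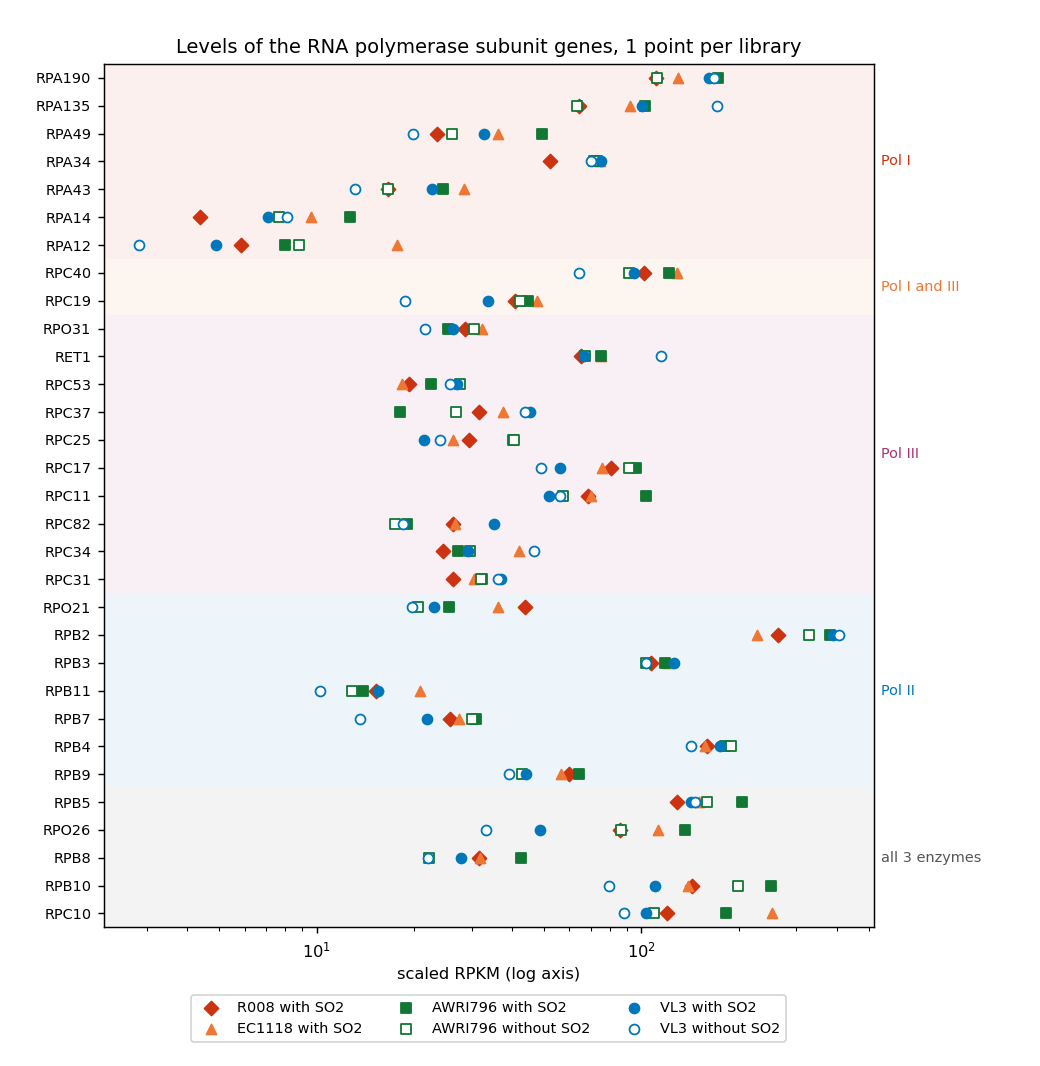
Scaled RPKM on a log axis for each subunit gene, with 1 point per library and genes grouped by enzyme. RPB2 lies between 227 and 404, far right of its partner RPO21, and open blue circles (VL3 without SO2) are the leftmost points of 17 of the 31 genes.

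VL3 without SO2 was the lowest of the 6 libraries for 17 members (54.8%), against 22.6% of all genes tested. These were 6 of the 7 polymerase II genes, 4 of the 5 common genes, both shared genes, 3 of the 7 polymerase I genes and 2 of the 10 polymerase III genes. AWRI796 with SO2 was the highest library for 11 members (35.5%), among them 4 of the 5 common genes, against 18.1% of all genes. R008 was the lowest for 7 members (22.6%), against 10.3%. These patterns were picked after the values were seen.

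In AWRI796, culture with SO2 went with higher levels of polymerase I and common subunits. At least 1.5-fold higher were 8 of the 31 genes (25.8%), against 17.6% of all genes tested, and 0 were that much lower, against 15.4%. They were the polymerase I genes RPA190, RPA135, RPA49 and RPA14, the common genes RPO26, RPB8 and RPC10, and RPC11 of polymerase III. The median log2 difference, with minus without SO2 on log2(scaled RPKM + 1), was 0.62 for the 7 polymerase I genes, 0.65 for the 5 common genes, 0.24 for the 2 shared genes, 0.19 for the 7 polymerase II genes and -0.00 for the 10 polymerase III genes. Over all genes tested it was also -0.00. Without scaling factors 6 members were higher and 1 lower. RPKM are shares of a library's reads, so a smaller share and less RNA per cell cannot be told apart.

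RPA49, part of a dimer of polymerase I that resembles the general factor TFIIF, showed the largest difference of its enzyme. It had 49.5 scaled RPKM in AWRI796 with SO2, against 26.1 without, or 1.86-fold. RPA190 and RPA135 were 1.54-fold and 1.60-fold higher with SO2 in AWRI796, from the values above. RPA14, of the stalk, had 12.7 scaled RPKM with SO2 and 7.65 without in AWRI796, or 1.58-fold. Its stalk partner RPA43 had 24.4 with SO2 and 16.6 without, or 1.45-fold. The other polymerase I subunits did not share this: RPA34, the partner of RPA49 in the dimer, had 71.2 with SO2 and 73.1 without, and RPA12 had the 7.98 and 8.82 given above.

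All 5 common subunits were higher with SO2 in AWRI796. RPB8 had 42.5 scaled RPKM with SO2 and 22.3 without, or 1.87-fold. RPC10, a small zinc-binding subunit, had 182 with SO2 and 109 without, or 1.66-fold. RPO26 had 136 with SO2 and 86.8 without, or 1.56-fold. The same difference was 1.27-fold for both RPB5 and RPB10, below the 1.5-fold limit. Outside these groups RPC11, which serves RNA cleavage and termination by polymerase III, had 103 with SO2 and 57.5 without, or 1.78-fold. The other polymerase III genes lay between a log2 difference of -0.55 for RPC37, of the termination dimer, and 0.16 for RET1. The 7 polymerase II genes lay between -0.05 for RPB4 and 0.56 for RPB9, which helps select start sites, and 0 of them passed 1.5-fold.

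In VL3, differences with SO2 of at least 1.5-fold went both ways. At least 1.5-fold higher with SO2 were 6 of the 31 genes (19.4%), against 10.7% of all genes tested, and at least 1.5-fold lower were 3 (9.68%), against 9.86%. The higher ones were RPA49, RPA43 and RPA12 of polymerase I, RPB7 of polymerase II, RPC82 of polymerase III and the shared RPC19. The lower ones were RPA135, RET1 and RPC34. The median log2 difference was 0.10 for polymerase I, 0.28 for polymerase II, 0.04 for polymerase III, 0.68 for the shared pair and 0.33 for the common subunits, against -0.01 over all genes. Without scaling factors, which moved the median of all genes to 0.15, the counts were 10 higher and 1 lower.

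RPC82, of the polymerase III trimer that acts in initiation, had the largest difference in VL3, with 35.1 scaled RPKM with SO2 and 18.4 without, or 1.86-fold. RPC34, another subunit of that trimer, went the other way, with 29.2 with SO2 and 46.7 without, or 1.58-fold lower. RPC31, the remaining subunit of the trimer, had 37.0 with SO2 and 36.2 without. The 3 genes of this trimer thus went different ways in VL3, and in AWRI796 their log2 differences lay between -0.11 and 0.12.

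The shared RPC19 had 33.6 scaled RPKM in VL3 with SO2 and 18.7 without, or 1.75-fold, and RPC40, its platform partner, had 94.8 with SO2 and 64.3 without, or 1.47-fold. RPB7 had 21.8 with SO2 and 13.7 without in VL3, or 1.56-fold. RPA43 had 22.7 with SO2 and 13.1 without, or 1.68-fold. For these 4 genes VL3 without SO2 was the lowest of all 6 libraries. RPA12 was 1.53-fold higher with SO2, from low values of 4.89 with SO2 and 2.84 without.

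The large subunits differed between the strains in their SO2 differences. RPA135 was 1.69-fold lower with SO2 in VL3 and 1.60-fold higher with SO2 in AWRI796, and its levels with SO2 were close, 102.5 in AWRI796 and 100.7 in VL3. RET1 was 1.72-fold lower with SO2 in VL3 and 1.12-fold higher in AWRI796. RPA190 had log2 differences of 0.62 in AWRI796 and -0.05 in VL3. RPO21, RPB2 and RPO31 stayed within 1.5-fold with SO2 in both strains. With 1 library per strain and SO2 level, none of these differences between strains has a replicate check.

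**Figure D3:**
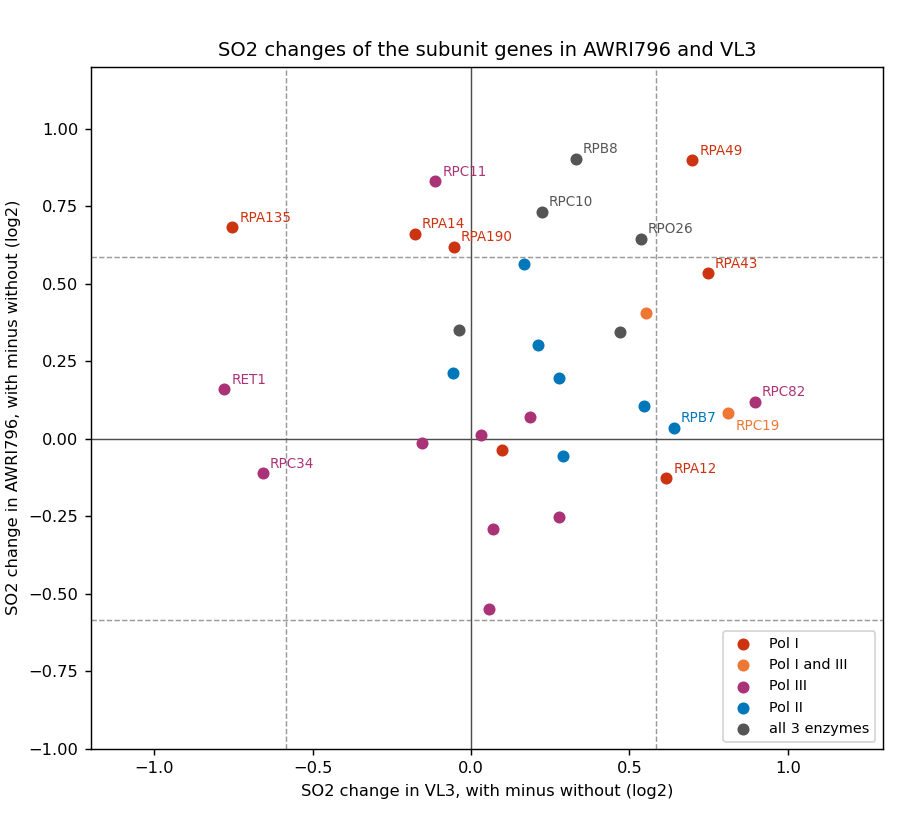
Log2 difference with minus without SO2 for each subunit gene, VL3 on the horizontal and AWRI796 on the vertical axis, coloured by enzyme, with dashed lines at 1.5-fold and names where either strain passed it. RPA49 is the single gene past the upper line in both strains, and RPA135 lies past the lower line in VL3 and the upper line in AWRI796.

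Genes higher with SO2 in both strains, by any amount, numbered 16 of 31 (51.6%), against 26.5% of all genes, and genes lower in both numbered 2, RPC25 and RPC34 (6.45%), against 27.4%. By enzyme, the 16 were 5 of the 7 polymerase II genes, 4 of the 5 common genes, both shared genes, 3 of the 10 polymerase III genes and 2 of the 7 polymerase I genes. RPA49 alone was at least 1.5-fold higher in both, a pattern shown by 2.85% of all genes. Its values in VL3 were 32.7 with SO2 and 19.8 without, or 1.62-fold.

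Taking the 4 libraries of AWRI796 and VL3 in 1 limma fit across all genes, with strain as a block, 0 of 31 members were called for SO2 at an adjusted p of 0.05, and 0 of 5092 genes in all (0.0%). At an unadjusted p under 0.05 there were 375 genes (7.36%) and 1 member, RPA49, with a log2 difference of 0.80 ± 0.29 (SE) and an adjusted p of 0.606. The fit has 1 residual degree of freedom. Nothing in the labels makes strains replicates of each other. With strain as a block, the residual of a gene is how far its SO2 difference disagreed between the strains. It was pooled with that of all genes, at 6.44 prior degrees of freedom. These p-values therefore do not measure the spread between replicate cultures.

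Other gene groups differed between the same cultures. The 14 measured stationary phase markers, genes of starved and stressed cells, had a median log2 difference of -0.85 with SO2 in AWRI796, with 8 at least 1.5-fold lower and 2 higher; their summed level was 5950.1 scaled RPKM with SO2 and 22423 without. HSP12 and HSP26, small heat shock proteins, held 18422 of the sum without SO2, and the other 12 genes summed to 2354.5 with SO2 and 4003 without. In VL3 their median difference was 0.33, with 4 higher and 1 lower, and sums of 5319.5 scaled RPKM with SO2 and 4568 without. The marker GRE1 was higher with SO2 in both strains, 3.95-fold in AWRI796 and 4.67-fold in VL3. None of the 14 markers was at 0 in any of these 4 libraries. Genes of cytosolic ribosomal proteins had median differences of 1.67 in AWRI796 (134 genes) and 0.34 in VL3 (136 genes), beside the 0.62 and 0.10 of polymerase I. The part of growth state in the values of the polymerase genes was not tested.

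**Figure D4:**
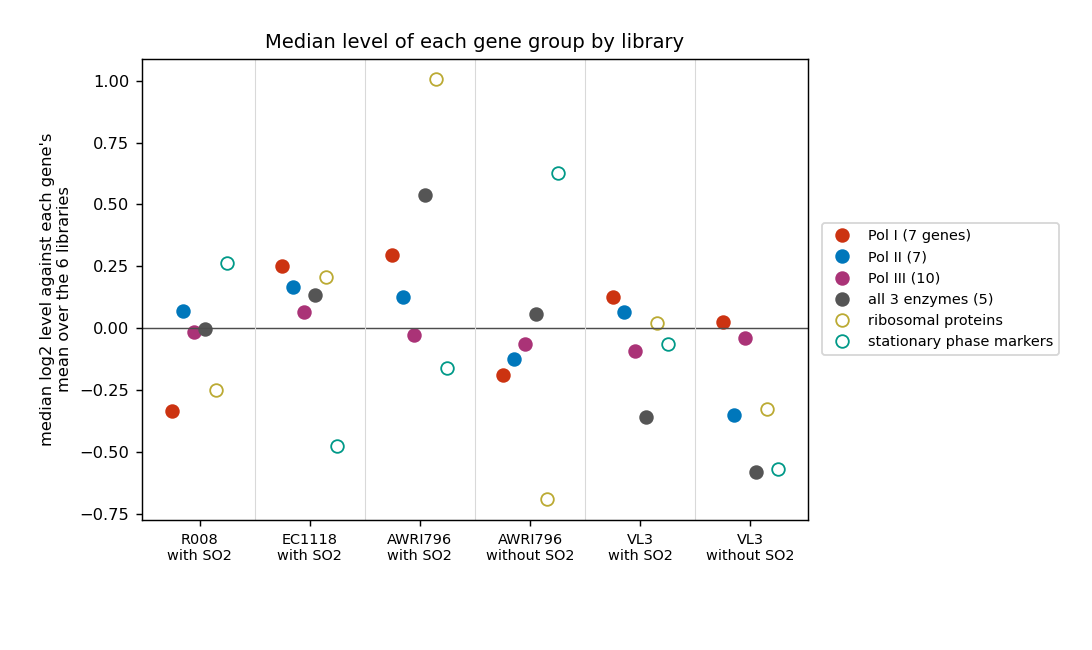
Median over the genes of each group of the log2 level against that gene's own mean over the 6 libraries, by library. Polymerase I subunits stand at -0.34 in R008 and 0.30 in AWRI796 with SO2, while polymerase III subunits stay between -0.09 and 0.07, and open circles give ribosomal protein and stationary phase genes.

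AWRI796 had higher levels of most common subunits and of several others than VL3 at both SO2 levels. Both AWRI796 libraries lay above both VL3 libraries for 11 members (35.5%), against 21.6% of all genes tested, and below both for 3, RPB2, RPC37 and RPC31 (9.68%), against 21.7%. The 11 were the common RPB5, RPO26, RPB10 and RPC10, the polymerase III genes RPC25, RPC17 and RPC11, RPB7 and RPB4 of polymerase II, RPA12 of polymerase I and the shared RPC19. Without SO2, 7 members were at least 1.5-fold higher in AWRI796 (22.6%), against 19.6% of all genes, and 4 were lower (12.9%), against 19.2%. With SO2, 9 were higher (29%), against 15.9%, and 2 were lower (6.45%), against 12.3%. Without SO2 the share of higher members was thus near that of all genes. Without scaling factors the median of all genes moved to 0.34 and the counts without SO2 became 14 higher and 1 lower.

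RPO26, a common subunit, had the largest difference of the members with SO2, and RPA135 without it. RPO26 had 136 and 86.8 scaled RPKM in AWRI796 with and without SO2, against 48.6 and 33.2 in VL3, which is 2.77-fold higher with SO2 and 2.57-fold without. R008 had 85.8 and EC1118 had 112.5, so both VL3 libraries lay below the other 4. RPB10, a small common subunit, had 250.9 and 198 in AWRI796 with and without SO2, against 110.1 and 79.2 in VL3, or 2.27-fold and 2.48-fold. Its R008 and EC1118 levels of 143 and 139 lay between those of the other strains.

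The stalk of polymerase III followed the same order. RPC17 had 96.3 and 91.7 scaled RPKM in AWRI796 with and without SO2, against 56.1 and 49.2 in VL3. RPC25 had 40.1 and 40.5 in AWRI796 with and without SO2, against 21.4 and 24.0 in VL3. For both genes R008 and EC1118 lay between these strains, with 80.4 and 75.5 for RPC17 and 29.5 and 26.4 for RPC25. RPC37 went the other way, with 18.0 and 26.8 in AWRI796 with and without SO2, against 45.5 and 43.7 in VL3, or 2.44-fold lower with SO2 and 1.60-fold lower without. Its dimer partner RPC53 differed less, with 22.5 and 27.7 in AWRI796 with and without SO2, against 27.1 and 25.8 in VL3, so that the ratio of RPC53 to RPC37 was 1.25 and 1.03 in AWRI796 and 0.597 and 0.591 in VL3. The large subunits of polymerases I and III differed between the strains mainly without SO2. There AWRI796 was 2.66-fold below VL3 for RPA135 and 1.70-fold below for RET1, with RPA190 just short of 1.5-fold below. RPO31 went the other way without SO2, with AWRI796 1.39-fold above VL3. For RPA135 and RET1 the VL3 library without SO2 was the highest of all libraries. The libraries of this comparison also serve in the SO2 comparisons, so the strain and SO2 differences are not independent.

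In the same limma fit 0 of 31 members were called between AWRI796 and VL3, against 17 of 5092 genes (0.334%). At an unadjusted p under 0.05 there were 7 members, among 610 genes in all (12.0%). Log2 differences were 1.42 ± 0.28 (SE) for RPO26 with an adjusted p of 0.144, 1.24 ± 0.30 for RPB10 with 0.184, and -0.98 ± 0.31 for RPC37 with 0.266. RPC17, RPC25, RPB7 and RPC19 had log2 differences between 0.77 and 0.83 and adjusted p-values between 0.314 and 0.395.

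Gene length moved with the difference between these strains. Over all genes tested, Spearman's rho between length and the log2 difference of AWRI796 over VL3 was -0.26 with SO2 and -0.22 without, and over the 31 members it was -0.58 and -0.46; genes share libraries, so these are descriptions. With SO2 the median difference was 0.69 for the 10 members under 500 bases, against 0.35 for all genes of that length, and 0.06 for the 6 members of at least 3000 bases, against -0.18 for all such genes. Without SO2 the medians of short and long members were 0.30 and -0.44, against 0.36 and -0.19 for all short and long genes. The common subunit genes span 213 to 648 bases, and those under 500 bases are among the short members. The part of length was not tested, and expression, gene models and mapping cannot be told apart between strains.

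R008, the vineyard strain, had lower polymerase I levels than the enological strains grown with SO2. All 7 polymerase I genes were below the mean of EC1118, AWRI796 and VL3 with SO2, by log2 differences of -0.97 to -0.46 and a median of -0.57. The medians were -0.09 for polymerase II, -0.03 for polymerase III, -0.09 for the shared genes and -0.13 for the common genes, against 0.01 over all genes tested. At least 1.5-fold lower were 3 members, RPA14, RPA49 and RPA135 (9.68%), against 5.79% of all genes, and 1 was higher, RPO21 (3.23%), against 6.69%. The AWRI796 and VL3 libraries with SO2 serve here and in the SO2 comparisons, so these are not independent. In AWRI796 without SO2, RPA190, RPA135 and RPA43 were near their R008 levels, and the other polymerase I genes were above them. Against each gene's own mean over all libraries, the polymerase I median was -0.34 in R008, -0.19 in AWRI796 without SO2 and 0.03 in VL3 without SO2.

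RPA14 had 4.39 scaled RPKM in R008, against 9.61 in EC1118, 12.7 in AWRI796 and 7.07 in VL3, all with SO2, and was 1.96-fold below their mean on the log2 scale. RPA49 had 23.5 in R008, against 36.1 in EC1118, 49.5 in AWRI796 and 32.7 in VL3, or 1.63-fold lower. RPA43 had 16.6 in R008, against 28.4 in EC1118, 24.4 in AWRI796 and 22.7 in VL3, or 1.48-fold lower. In each of these genes the R008 library lay below all 3 others. RPA34 had 52.2 in R008, against 74.4 in EC1118, 71.2 in AWRI796 and 75.1 in VL3, where the enological strains lay close together. RPA190 and RPA135 were 1.37-fold and 1.52-fold lower in R008, also below every enological library with SO2, from the values above.

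R008 was thus below all 3 enological libraries for 6 of the 7 polymerase I genes, against 1 of 7 of polymerase II, 3 of 10 of polymerase III, 1 of 5 common and 0 of 2 shared genes; in all, 11 of 31 (35.5%), against 21.2% of all genes. The exception in polymerase I was RPA12, for which VL3 with SO2 was lower than R008. RPO21 was the single member above all 3 (3.23%), a pattern of 20.1% of all genes, with 43.9 in R008, against 36.2 in EC1118, 25.5 in AWRI796 and 22.9 in VL3, or 1.57-fold higher than their mean. The polymerase III genes lay between -0.39 for RPC34 and 0.11 for RPC17, and 0 of the 10 passed 1.5-fold.

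The limma fit of R008 against the 3 enological libraries called 0 of 31 members, against 9 of 5009 genes (0.18%), and gave 0 members an unadjusted p under 0.05, against 158 genes (3.15%). The lowest adjusted p of a member was 1. The fit assumes that the single R008 library varies like the others, and without VL3 the count of members at least 1.5-fold lower is 6 and that of members higher is 0. Without any scaling factor 9 members were lower in R008 and 0 higher, while the median of all genes moved to -0.21 and that of polymerase I to -0.79.

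Ribosomal protein genes moved with this comparison, with a median of -0.64 in R008 and 74 of 129 at least 1.5-fold lower. Of 13 stationary phase markers 6 were at least 1.5-fold higher in R008 and 2 lower, with a median of 0.53. Their summed level was 9844 scaled RPKM over 13 genes in R008, against 3676 in EC1118, 5950.1 in AWRI796 and 5319.5 in VL3 over 14 genes, all with SO2, and none was at 0. HSP12 and HSP26 held 7704 of the sum in R008, and the 11 other genes measured in all 4 libraries summed to 2141 in R008, against 1564 in EC1118, 1772 in AWRI796 and 1689.8 in VL3. The part of growth state in the lower polymerase I levels was not tested.

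**Figure D5:**
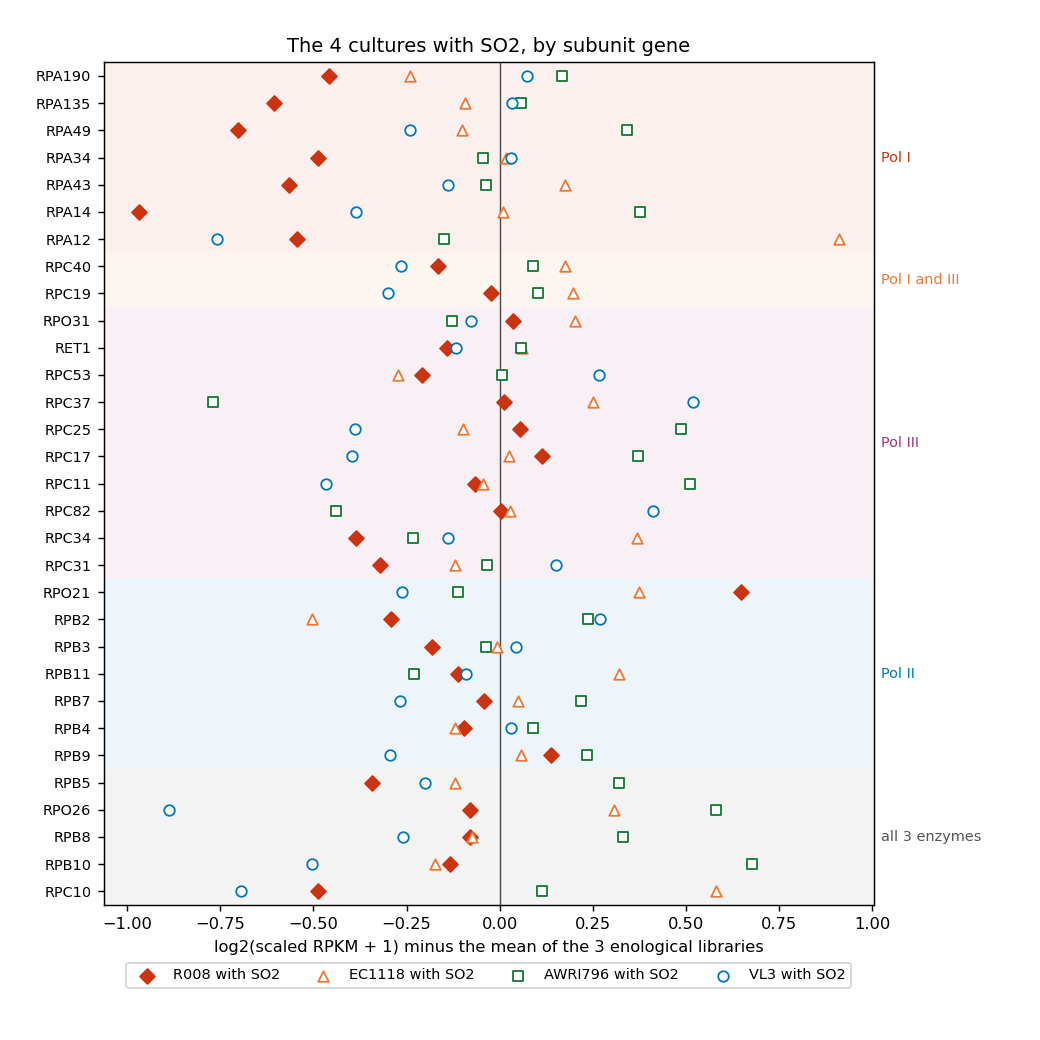
Log2(scaled RPKM + 1) of each subunit gene in the 4 cultures with SO2, minus the mean of the 3 enological libraries, with filled diamonds for R008 and open symbols for the enological strains. The diamonds of polymerase I lie between -0.97 and -0.46 and are leftmost in 6 of 7 rows, while those of polymerase III lie on both sides of 0.

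Genes that work with the polymerases had median SO2 differences near or below 0 in the lists of polymerase I, polymerase III and general polymerase II factors and of assembly genes, and above 0 in the list of polymerase II elongation genes. RRN3, a factor that polymerase I needs to start transcription, had 70.6 scaled RPKM in AWRI796 with SO2, against 186 without, and 68.6 in VL3 with SO2, against 113 without. It was 2.62-fold and 1.63-fold lower with SO2, in AWRI796 and VL3 in that order, whereas polymerase I subunits had medians of 0.62 and 0.10. Of the 7 measured polymerase I factors 0 passed 1.5-fold upward with SO2 in either strain; RRN3 was that much lower in AWRI796, and RRN3 and RRN5, part of the upstream activating factor, in VL3. Their medians were -0.11 and -0.18. RRN7 did not pass the filter on low values. In R008 their median was 0.07, against -0.57 for the subunits.

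The 9 polymerase III factors had medians of -0.16 in AWRI796 and -0.16 in VL3, with 1 gene past 1.5-fold, BDP1, lower in AWRI796. MAF1, the repressor of polymerase III, had log2 differences of -0.12 in AWRI796 and -0.05 in VL3. SPT15, the TATA-binding protein used by all 3 enzymes, had 165 scaled RPKM in AWRI796 with SO2, against 119.2 without, a log2 difference of 0.47, below the 1.5-fold limit; in R008 its difference was -0.47.

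The 18 general factors of polymerase II had medians of 0.02 in AWRI796 and -0.21 in VL3. In VL3 SSL1 and SSL2, subunits of TFIIH, had log2 differences of -0.70 and -0.72 with SO2, and TFG2, of TFIIF, had 0.59. In AWRI796 TOA2, of TFIIA, had 0.59. The 10 elongation genes had medians of 0.18 in AWRI796, with 6 of 10 above 0, and 0.27 in VL3, with 8 of 10 above 0, beside the 0.19 and 0.28 of the polymerase II subunits. Of these 10 genes 3 passed 1.5-fold upward with SO2 in VL3, all of them subunits of the Paf1 complex. LEO1 had 57.8 scaled RPKM in VL3 with SO2, against 30.2 without, RTF1 had 72.5 with SO2 against 38.2 without, and PAF1 had 41.2 with SO2 against 24.7 without. In AWRI796 the log2 differences of these genes were -0.24, -0.04 and 0.45. None of the 10 passed 1.5-fold there.

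Of the genes for assembly and import of the polymerases, GPN2, a GTPase of assembly, was at least 1.5-fold lower with SO2 in both strains, with 62.8 scaled RPKM with SO2, against 117.7 without, in AWRI796, and 81.0 with SO2, against 129.6 without, in VL3. RTP1, an import factor of polymerase II, was 1.54-fold lower in AWRI796 and 1.43-fold lower in VL3. Over this group the medians were -0.34 in AWRI796 (8 genes) and -0.30 in VL3 (7 genes).

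Of the regulators that bind PAC or RRPE, STB3 was 1.56-fold higher with SO2 in AWRI796 and 1.77-fold higher in VL3, at low levels of 4.57 scaled RPKM with SO2 against 2.58 without in AWRI796, and of 6.28 with SO2 against 3.12 without in VL3. DOT6 had log2 differences of 0.00 in AWRI796 and -0.18 in VL3, and TOD6 did not pass the filter. SFP1, an activator of ribosomal protein genes, had 0.18 and 0.43. Of the mitochondrial polymerase, RPO41 had -0.08 in AWRI796 and -0.28 in VL3, and its factor MTF1 had 0.39 and 0.29.

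Differences were also set beside the promoter letters. With R008 against the enological strains, the 16 members with a PAC core had a median log2 difference of -0.26 and the 15 without it -0.09. Over all genes tested these medians were -0.09 for the 833 with a PAC core and 0.03 for the 4093 without. The 287 genes with both PAC core and RRPE had a median of -0.24, with 35 at least 1.5-fold lower and 5 higher. The 14 such members had -0.30. Of all genes tested, 5.79% were that much lower in R008 and 6.69% higher. With SO2 in AWRI796 the 289 genes with both had a median of 0.23, with 78 at least 1.5-fold higher and 18 lower. The 14 members had 0.14, 4 of them higher. Of all genes tested, 17.6% were that much higher with SO2 in AWRI796 and 15.4% lower. In VL3 the medians were 0.10 for 288 genes and 0.08 for the 14 members. With SO2 in AWRI796 the 16 members with a PAC core had a median of 0.10 and the 15 without it 0.30; in VL3 these medians were 0.06 and 0.28. Over all genes tested, the medians with SO2 were 0.02 with a PAC core and -0.01 without in AWRI796, and -0.03 and -0.01 in VL3. The part of these letters in the differences was not tested.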

How the data were processed

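Total RNA depleted of ribosomal RNA was made into SOLiD 4 whole transcriptome libraries, per the labels' protocols. The deposited values are RPKM, made by the authors, per the file headers. The aligner, counting tool, build and each strain's gene lengths were not given in the sources used here; expression and gene models cannot be told apart between strains. The deposited table held 6611 rows, of which 8 sharing 4 names were left out, leaving 6603 genes.

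Depth is unknown: the share of low RPKM that came within 0.1 of a whole number of reads was 23.6% to 31.2% by library, where chance gives 20%, so reads were not recovered. RPKM sums ran from 778099 in R008 to 1070965 in AWRI796 with SO2. Values were divided by median-of-ratios factors from 4993 genes, and differences were taken on log2(scaled RPKM + 1), which understates low genes. Genes with a mean of at least 5 RPKM were kept, 5335 in all. Single-library differences carry no test and are read at 1.5-fold. Across all genes, limma 3.58.1 in R 4.3.3 (lmFit, eBayes with trend) gave two-sided p-values with Benjamini-Hochberg adjustment at 0.05. The prior degrees of freedom were 6.44 for the 4-library fit and 8.54 for R008, which has 2 residual degrees of freedom. The SO2 fit was tried on simulated data with changes larger than any member difference given here. That trial does not show whether differences of the members' size could be called. Motifs were searched with Python 3.11.15, other genome matches with BLAST+ 2.17.0 (blastn), and figures were drawn with matplotlib 3.10.9.

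Members were found by gene name alone, though that name rule and the gene lists were chosen with earlier results of these data known. Values in every library are given for the large subunits of each enzyme and for RPA12. Members at least 1.5-fold different with SO2 in VL3 or AWRI796 have values at least in the strain where they passed. The highest and lowest of each class are given by value, range or mean. Genes outside the members are named where past 1.5-fold in both strains or among the larger differences of a list. Stationary phase markers other than HSP12, HSP26 and GRE1, and ribosomal protein genes, are given as groups. A few regulators (MAF1, SPT15, DOT6, SFP1, RPO41) and patterns between libraries were named after their values were seen. Alternatives were other pseudocounts, scalings and filters, the fit without the strain block and each enological strain left out.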

Additional observations from a re-analysis of the deposited data

Results flagged for a closer look

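RPA135, the second largest subunit of RNA polymerase I, differed in opposite directions with SO2, past 1.5-fold in each strain. Its log2 difference was 0.68 in AWRI796 and -0.75 in VL3, so the SO2 difference of AWRI796 minus that of VL3 was 1.43. The levels behind it were 102.5 and 63.5 scaled RPKM in AWRI796 with and without SO2, and 100.7 and 170.5 in VL3 with and without SO2. With 1 library per strain and SO2 level the difference between the strains was not tested.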

How the results depend on the processing

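In all, 460 values were recomputed under 10 settings. None of the differences or medians past 1.5-fold changed sign, and members past 1.5-fold were still past it in 241 of 264 recomputed values. The settings that change only the filter leave the value of each kept gene as it was, so these could not fail. A changed pseudocount cannot turn the sign of a difference between single libraries, so there it could not fail either. For those differences a sign could have changed only without scaling factors and with quantile normalization. Counts and medians under 1.5-fold were not checked for sign. Some of these medians did change sign: that of polymerase III for AWRI796 against VL3 without SO2 was -0.02, and 0.34 without scaling factors. Scaling mattered most. Without scaling factors the median of all genes moved to 0.15 for SO2 in VL3 and 0.34 for AWRI796 against VL3 without SO2. The counts of members then were 10 higher and 1 lower with SO2 in VL3, 1 lower with SO2 in AWRI796, and 14 higher and 1 lower in AWRI796 against VL3 without SO2, where the medians became 0.43, 0.50 and 0.34 for polymerases I, II and III. For R008 against the enological strains, 9 members were lower and 0 higher without scaling, 5 were lower at a pseudocount of 0.1 and 5 with quantile normalization, and 0 were higher at a pseudocount of 5. Leaving out an enological strain gave 2 to 6 members lower and 0 to 1 higher, and a polymerase I median of -0.64 to -0.58. The count of polymerase I genes with R008 below every enological library stayed between 5 and 7. Pseudocounts keep the order of libraries within a gene, filters only drop genes, and leaving out an enological strain cannot lower this count. Apart from dropped genes, it could have fallen only without scaling factors, where it was 6, and with quantile normalization, where it was 7. Members called by limma stayed at 0 in every setting, including the fit with no strain block. A mean of at least 20 RPKM left 28 members. Depth is unknown, so it cannot be said which small differences counting error could give.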
